A study of Mus musculus with 6 samples.

Results

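The gdT/NKT cluster of tumor-infiltrating lymphocytes is a group of 206 cells to which the deposited cell annotation gives the name gdT/NKT, for gamma-delta T cells and natural killer T cells. It makes up 206 of the 2084 annotated T and NK cells of 3 treatment groups, which fall into 12 annotated clusters. The members were taken from the annotation as it stands, with 78 cells from the PBS library, 75 from the mono-IL10 library and 53 from the IL10/2-Trikine library. All 206 were found in the count matrices. A mouse of origin is given for 142 of them, 56, 56 and 30 in the order PBS, mono-IL10, IL10/2-Trikine.

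The cells came from C57BL/6 mice carrying subcutaneous tumors grown from 6694c2vTRP1 pancreatic ductal adenocarcinoma cells. Mice received intraperitoneal PBS, mono-IL10 (monomeric interleukin-10, 26 µg per mouse) or IL10/2-Trikine (30.6 µg per mouse), an interleukin-10 protein engineered to draw the interleukin-2 receptor beta chain into its receptor complex. There were 2 doses from day 8, and tumors were taken on day 14. CD45+ cells were isolated with beads, tagged with 5 hashtag antibodies, pooled within a treatment and run as 1 droplet library per treatment (10x Genomics 5' chemistry), so a hashtag is taken as a mouse and treatment and library cannot be told apart. The sources state 5 mice for mono-IL10 and for IL10/2-Trikine but no number for PBS, where 5 mice were assumed from the 5 hashtags. Male and female mice were used for this tumor model, and neither their split over the groups nor their age is given for these libraries in the sources used here.

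Gamma-delta T cells carry a T cell receptor made of a gamma and a delta chain, and they respond to stress ligands and cytokines without the peptide presentation that conventional T cells need. Natural killer T cells carry an alpha-beta receptor, invariant NKT cells a fixed alpha chain built from Trav11 and Traj18, and they depend on the transcription factor PLZF, encoded by Zbtb16. Both kinds of cell share surface receptors and effector molecules with NK cells, which have no rearranged T cell receptor.

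The label was first set against its defining transcripts. A unique molecular identifier (UMI) is 1 counted transcript molecule, and a cell is called positive for a gene here when it held at least 1. Trdc, the constant gene of the delta chain, was seen in 33 of the 206 cells (16.0%, exact 95% binomial interval 11.3 to 21.8%). Trac, the constant gene of the alpha chain, was seen in 83 cells (40.3%). Cd3e, a chain of the CD3 complex that every T cell receptor needs, was seen in 118 cells (57.3%), and Zbtb16 in 10 cells (4.85%), 8 of them from the mono-IL10 library. The invariant NKT transcripts Trav11, Trav11d and Traj18 were each seen in 0 of 206 cells. By counting error this leaves room for at most 1.46% of cells with a detected transcript. It sets no limit on invariant NKT cells, since any alpha variable gene was seen in only 8 of 82 cells with Trac and no Trdc UMI. Trav11 and Trav11d were also not seen in any other cluster. The invariant NKT part of the name was therefore not shown by these transcripts, and the cells are called the gdT/NKT cluster in what follows. Intervals and limits cover counting error only, and the median depth was 2701 UMIs per cell, so a gene with no UMI in a cell was not shown to be silent there.

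Trdc was not particular to the cluster. Of the 135 annotated cells with a Trdc UMI, 24.4% lay in gdT/NKT and 46.7% in the NK cluster, where 63 of 795 cells were positive (7.92%). The share was highest in the small Th17/ILCs cluster, with 7 of 21 cells (33.3%). In naive_CD8T cells, which carry an alpha-beta receptor, it was 0.5% at a median of 3048 UMIs, and this share served as a background. After each cell was thinned to 1500 UMIs, Trdc was seen in 10.8% of gdT/NKT cells, 3.94% of NK cells, 30.5% of Th17/ILCs cells and 0.436% of naive_CD8T cells. Among other T cell clusters it was 7.57% in naive_T (2 of 25 cells before thinning), 3.16% in naive_CD4T and 2.64% in Cycling_T. It was 0% in Treg, Cycling_Treg, act_CD4T and ISG+CD8T. The gdT/NKT share thus lay above both the naive_CD8T and the NK share at equal depth. Before thinning Trac was seen in 5.53% of NK cells and 77.5% of naive_CD8T cells, and in 38.1% of Th17/ILCs cells.

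The cluster was next split by constant gene. Cells with a Trdc UMI and no Trac UMI (Trdc class) numbered 32, cells with a Trac UMI and no Trdc UMI (Trac class) 82, cells with both 1, and cells with neither 91. When variable genes of the delta and alpha chains were added and a cell was given to the chain with more UMIs, 40 cells fell on the delta side, 88 on the alpha side, 1 on both and 77 on neither. A CD3 transcript (Cd3d, Cd3e or Cd3g) was seen in 84.4% of Trdc class, 97.6% of Trac class and 63.7% of the cells with neither, against 9.06% of NK cells and 100% of naive_CD8T cells. By library, the share among cells with neither was 73.3% for PBS and 72% for mono-IL10, and under IL10/2-Trikine it was 50% (18 of 36 cells). No doublet caller was run on these cells, and 1 cell held both constant genes.

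The mix differed in number between the libraries. In the PBS library 40 cells were Trac class, 8 Trdc class and 30 neither. In the mono-IL10 library the counts were 33, 16 and 25, with the 1 remaining cell holding both. In the IL10/2-Trikine library they were 9, 8 and 36. Trac class thus made up 51.3%, 44.0% and 17% of the cluster and the cells with neither 38.5%, 33.3% and 67.9%, in the order PBS, mono-IL10, IL10/2-Trikine. The libraries also differed in depth, with a median of 2627, 3508 and 2195 UMIs and 1256.5, 1430 and 1139 detected genes per gdT/NKT cell, and thinning every cell to 1500 UMIs gave 36.3%, 29.4% and 12.8% for Trac class and 57.8%, 55.8% and 74.9% for neither. The order of the libraries for Trac class was the same at equal depth. Among cells with 1 of the constant genes, Trdc class was 16.7% in PBS (95% interval 7.48 to 30.2%), 32.7% in mono-IL10 (19.9 to 47.5%) and 47.1% in IL10/2-Trikine (23.0 to 72.2%). These intervals overlap, and there is 1 library a group.

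Variable gene transcripts were kept out of the features used to sub-cluster the T cells, so their use was not set by the clustering features. A gamma chain variable gene was seen in 25 gdT/NKT cells (12.1%), 8 of Trdc class, 7 of Trac class, 1 with both constant genes and 9 with neither. In the NK cluster the share was 1.26%. The gamma transcripts were mostly Trgv2 (19 UMIs in 14 cells) and Trgv1 (16 UMIs in 13 cells), while Trgv6, the variable gene of interleukin-17-producing gamma-delta cells, was seen in 0 of 206 cells. A beta chain variable gene was seen in 50 cells (24.3%), and 37 of these were Trac class. No single one led among them. Trbv16 and Trbv29 were each seen in 7 cells, Trbv1 in 6, Trbv12-2, Trbv13-1 and Trbv13-2 in 5 each, and Trbv3 and Trbv17 in 4 each. A beta variable gene was seen in 0.629% of NK cells.

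Genes named as delta chain variable genes alone (Trdv) were seen in 11 gdT/NKT cells (5.34%), 1 of Trdc class, 2 of Trac class and 8 with neither, and in 110 NK cells (13.8%). Variable genes shared by the alpha and delta chains were left out of the counts of both chains. Of these, Trav15-2-dv6-2 was seen in 2 cells and Trav13-4-dv7 and Trav15d-1-dv6d-1 in 1 each, all of Trdc class, and Trav4-4-dv10 and Trav6-7-dv9 in 1 cell each, both of Trac class. Trdv4 was seen in 5 gdT/NKT cells and 59 NK cells. An alpha chain variable gene was seen in 14 gdT/NKT cells (6.80%), 8 of Trac class and 6 with neither. Transcripts of a variable gene need not come from a rearranged receptor, and the counts hold no join of variable to constant gene.

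**Figure D1:**
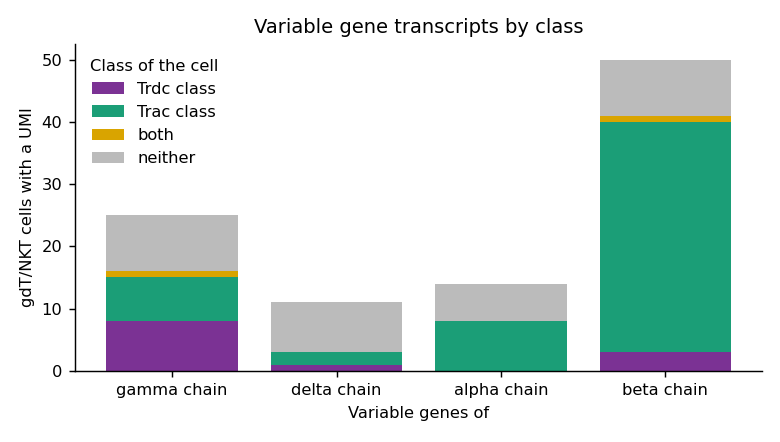
Number of gdT/NKT cells (vertical axis) with at least 1 UMI of a variable gene of each receptor chain (horizontal axis), stacked by the constant gene class of the cell. Genes shared by the alpha and delta chains are left out. Of the 50 cells with a beta chain variable gene 37 were Trac class, while the 25 with a gamma chain variable gene were spread over 8 Trdc class, 7 Trac class, 1 with both and 9 with neither.

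Transcript levels that set the cluster apart are given here as CPM (summed counts scaled to a common library total) and as shares of cells, and without a test, since the clusters were made from the same genes. Receptors of the Ly49 family, which read class I molecules, split by member. Klra1 was seen in 38.8% of gdT/NKT cells, 8.93% of NK cells and 1.5% of naive_CD8T cells. Klra7 was seen in 46.6%, 28.3% and 3%, Klra5 in 18%, 10.4% and 0%, and Klra6 in 11.7%, 2.26% and 3%. For these 4 the cluster held the highest CPM of the 12 clusters. Klra8 and Klra4, which encode the activating receptors Ly49H and Ly49D, were each seen in 8 gdT/NKT cells (3.88%), at 25.3 and 36.4 CPM, and in 28.6% and 28.3% of NK cells, at 281 and 291 CPM, the highest of the 12. Ncr1, the receptor NKp46 that marks NK cells, went the other way, with 18% of gdT/NKT and 44.3% of NK cells. The adaptors Fcer1g and Tyrobp, which couple NK receptors to signaling, were seen in 89.3% and 68.0% of gdT/NKT cells, against 98.7% and 98.5% of NK cells and 14.5% and 19.5% of naive_CD8T cells. The cluster thus shared receptors and adaptors with NK cells and CD3 with T cells.

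Among secreted and cytotoxic products, Xcl1, a chemokine that draws cross-presenting dendritic cells, reached 2342 CPM in gdT/NKT cells, the highest of the 12 clusters with libraries pooled, and was seen in 77.7% of cells against 66.5% of NK and 10.0% of naive_CD8T cells. The rank does not hold within each treatment. In the comparison with NK cells below, mean Xcl1 was higher in NK than in gdT/NKT cells under PBS and mono-IL10. Ccl5, a chemokine for effector T cells and monocytes, was seen in 65.5% of cells. The granule protein Nkg7 was seen in 90.8%, granzyme B (Gzmb) in 50%, perforin (Prf1) in 25.2% and granzyme A (Gzma) in 22.8%. In NK cells the shares were 97.1%, 72.1%, 69.4% and 56.9% for the last 4, each above the gdT/NKT share. Gzmk, found in 40.0% of naive_CD8T cells, was seen in 3 gdT/NKT cells (1.46%). Interferon gamma (Ifng) was seen in 10.7%. Tbx21 and Eomes, the transcription factors of type 1 lymphocytes, were seen in 23.3% and 14.6%.

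The type 17 genes differed among themselves. Of 21 listed genes that were measured, 10 had a UMI in the cluster, together 269 CPM, led by Rora (23.8% of cells), Areg (5.83%), Maf (8.74%) and Tmem176b (5.83%), which other lymphocytes also express. Scart1 was seen in 1 cell and Scart2 in 3. Il17a, Il17f, Il23r, Blk and Sox13, which mark interleukin-17-producing gamma-delta cells, were each seen in 0 of 206 cells, which allows up to 1.46%. In the 21 cells of the Th17/ILCs cluster, Il23r was seen in 12, Blk in 8 and Il17a in 3. Of 8 type 2 lymphocyte genes 4 had a UMI, together 98.1 CPM: Gata3 in 18.4% of cells, Calca in 2.91%, Klrg1 in 1.46% and Il4 in 0.485%, while Il5, Il13 and Il1rl1 were among those at 0. Of 5 regulatory T cell genes 3 had a UMI, together 1340 CPM. Ikzf2, the transcription factor Helios, was seen in 70.4% of gdT/NKT cells at 1176 CPM, against 98.4% of Treg cells and 46.7% of NK cells, Ctla4 in 27.2% and Il2ra in 9.22%. Foxp3, the defining regulatory T cell factor, was at 0 in the cluster and in 63.8% of Treg cells. Cd4 was seen in 2 cells. Cd8a was seen in 14 cells, 6.80% of gdT/NKT against 75.5% of naive_CD8T cells.

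For the receptors of the drugs, Il10ra, the ligand-binding chain of the interleukin-10 receptor, was seen in 3 of 206 cells (1.46%), the lowest CPM of the 12 clusters, against 4.65% of NK and 7.5% of naive_CD8T cells. Il10rb, the chain it pairs with, was seen in 9.22%. Il2rb, the chain that IL10/2-Trikine recruits, was seen in 88.8% of gdT/NKT, 95.6% of NK and 62.5% of naive_CD8T cells, and its partner Il2rg in 55.8%. Il2ra, the high-affinity chain, was seen in 9.22%. Il12rb2 was seen in 45.6%, Il21r in 38.8%, and Il18r1 and Il7r in 21.8% each. The cluster thus held transcripts of the interleukin-2 beta chain in most cells and of the interleukin-10 ligand-binding chain in few.

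Stress transcripts also stood out. Hspa1a (312 CPM) and Hspa1b (484 CPM), heat shock genes that respond to handling, were highest here of all 12 clusters, in 13.1% and 18.4% of cells against 3.27% and 5.79% of NK cells. Markers of other cells were low but not absent. The 3 neutrophil markers summed to 464 CPM in the PBS library and to 10.8 and 16.6 CPM in mono-IL10 and IL10/2-Trikine, and the PBS value rested on 1 mouse. PBS mouse 3 held 60 UMIs of S100a8 and 37 of S100a9 (3380 CPM for the list), against 0 to 4 UMIs of either gene in the other PBS mice, and the median PBS mouse was at 115 CPM. The 8 macrophage and monocyte markers summed to 412, 266 and 414 CPM in the cluster and to 463, 319 and 368 CPM in the other annotated cells of the same libraries, and the 4 B cell and 4 dendritic cell markers were at 0. Of the gdT/NKT cell barcodes, 2, 1 and 1 from the PBS, mono-IL10 and IL10/2-Trikine libraries also occurred among the barcodes of another library. The part of these in the results was not tested, except where counts without the heat shock positive cells are given.

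**Figure D2:**
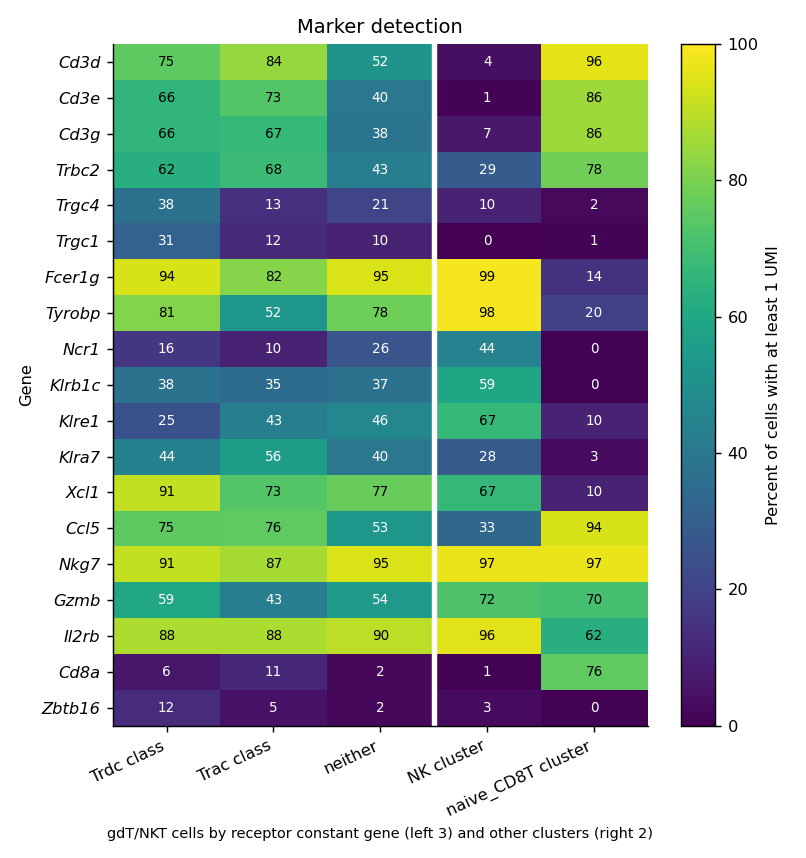
Percent of cells with at least 1 UMI (color and printed value) for 19 genes in the 3 receptor classes of the gdT/NKT cluster and in the NK and naive_CD8T clusters. Cd3d was seen in 75.0% of Trdc class, 84.1% of Trac class and 51.6% of cells with neither, and Tyrobp in 81.3%, 52.4% and 78.0%.

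The classes were then compared with each other. Tyrobp was seen in 81.3% of Trdc class, 52.4% of Trac class and 78.0% of the cells with neither. Ncr1 was seen in 15.6%, 9.76% and 26.4%, and Gzma in 15.6%, 14.6% and 33.0%, so the cells with neither constant gene had the highest share of both. The gamma constant gene Trgc1 was seen in 31.3%, 12.2% and 9.89%, and Trgc4 in 37.5%, 13.4% and 20.9%. The beta constant genes did not part Trdc class from Trac class. Trbc2 was seen in 62.5%, 68.3% and 42.9%, and Trbc1 in 43.8%, 32.9% and 40.7%. In NK cells Trbc2 was seen in 29.1% and Trbc1 in 61.4%. The heat shock gene Hspa1b was seen in 21.9%, 8.54% and 25.3%. Zbtb16 was seen in 12.5% of Trdc class, 4.88% of Trac class and 2.20% of the rest. Of the Ly49 receptors, Klra1 was seen in 37.5%, 43.9% and 35.2%, Klra5 in 21.9%, 19.5% and 15.4%, Klra6 in 6.25%, 17.1% and 8.79%, and Klra7 in 43.8%, 56.1% and 39.6%. These shares pool the cells of all libraries and carry no test.

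The test used the 5 mice with at least 2 cells of each class, so that each mouse was its own control. These were 1 PBS mouse, 3 mono-IL10 mice and 1 IL10/2-Trikine mouse, with 44 cells and 2 to 10 cells a sum. Counts were summed per mouse and class and fitted in edgeR with the mouse as a block. Of 1310 genes tested 6 passed an adjusted p of 0.05 (0.458%), and 2 of these, Trdc and Trac, define the classes. DESeq2 called Trdc and Trac alone.

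The 4 others were Ifitm1, Ccl5, Cdk8 and Setbp1, given as CPM after TMM scaling. For Ccl5 the Trdc class held 688, 1666, 992, 725 and 1949 CPM and the Trac class of the same mice 1728, 5045, 5865, 4054 and 176 CPM, in the order PBS mouse 1, mono-IL10 mice 1, 2 and 4, IL10/2-Trikine mouse 2. Trdc class was lower in 4 of 5 mice and higher in the IL10/2-Trikine mouse. The log2 difference was -1.51 ± 0.27 (SE, edgeR adjusted p = 1.2e-05), the call was lost without mono-IL10 mouse 4 (adjusted p = 0.232), and DESeq2 gave an adjusted p of 0.999. Ifitm1, an interferon-induced membrane protein, was carried by few molecules. Its UMIs were 0, 19, 0, 8 and 23 in the Trdc class and 0, 1, 0, 2 and 0 in the Trac class, so it was higher in 3 of 5 mice and at 0 in both classes of the other 2. The log2 difference was 4.26 ± 0.74 (edgeR adjusted p = 6.5e-06, DESeq2 0.999).

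The calls of Cdk8, a kinase of the Mediator complex, and Setbp1, a chromatin regulator, depended on single mice. Cdk8 reached 27280 CPM in the Trdc class of the IL10/2-Trikine mouse against 4399 CPM in its Trac class, and in 3 of 5 mice Trdc class was the lower. The Cdk8 call (log2 difference 1.26 ± 0.27, edgeR adjusted p = 0.00062) was lost without mono-IL10 mouse 4 or without that mouse. Setbp1 was lower in Trdc class in all 5 mice, with 0, 0, 0, 1 and 0 UMIs there against 5, 10, 6, 4 and 8 in Trac class. Its fitted log2 difference of -3.91 ± 0.96 depends on the prior count, so no size is read from it. The Setbp1 call (edgeR adjusted p = 0.011) was lost without PBS mouse 1, mono-IL10 mouse 1 or IL10/2-Trikine mouse 2. Of the type 1 and cytotoxic genes fixed as a list 8 were tested and Ccl5 was the 1 called, where 0.458% of all genes tested were called. Of the 4 CD3 chains 0 were called, with 0 at an unadjusted p under 0.05 in either direction (1.53% of all genes tested were higher and 2.44% lower), a median log2 difference of -0.24 and a median over all genes of -0.12.

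**Figure D3:**
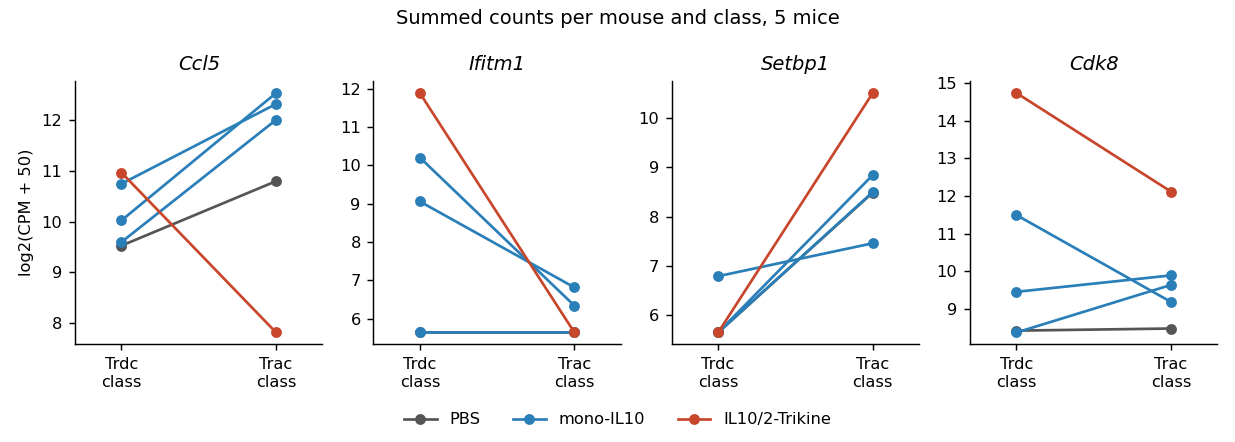
Log2(CPM + 50) of the summed counts of Trdc class and Trac class cells for the 4 genes called beside the class genes, with a line joining the classes of each of 5 mice and colors for the treatment. Ccl5 is lower in Trdc class in 4 of 5 mice, and Ifitm1 is higher in 3 of 5.

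The question for treatment was whether the share of the cluster, and of each class, among annotated T and NK cells differed between groups. Per mouse, the cluster made up 20, 10.9, 12.7, 18.8 and 17.1% of annotated cells under PBS, 8.52, 7.83, 14.3, 9.30 and 7.45% under mono-IL10 and 5.97, 8.96, 8.70, 4.17 and 7.62% under IL10/2-Trikine. Every IL10/2-Trikine mouse was below every PBS mouse, while 1 mono-IL10 mouse overlapped PBS. The means were 15.9% ± 3.92, 9.48% ± 2.78 and 7.08% ± 2.01 (SD, n = 5 each). An exact two-sided permutation test over mice gave p = 0.00794 for IL10/2-Trikine against PBS, the smallest that 5 against 5 can give (adjusted over 3 comparisons 0.0238), p = 0.0238 for mono-IL10 against PBS (adjusted 0.0357) and p = 0.159 for IL10/2-Trikine against mono-IL10. The PBS mice are shared by the comparisons of both treatments. Shares are relative to the other cells captured, and with the 2 NK clusters out of the denominator the exact test gave an adjusted p of 0.131 for IL10/2-Trikine against PBS (difference -5.94 percentage points) and 0.0714 for mono-IL10 against PBS (-8.72). Both calls were also lost with cells of at least 1500 genes (-10.4, adjusted p = 0.0714, and -5.80, adjusted p = 0.246, by the exact test) and, a choice made after seeing the data, with only cells holding a CD3, Trac or Trdc UMI counted (-7.86, adjusted p = 0.0952, and -4.81, adjusted p = 0.214). Both were kept with the cycling clusters left out of the denominator. The mono-IL10 call was also lost on leaving out PBS mouse 1, 4 or 5 or mono-IL10 mouse 1, 2, 4 or 5, with adjusted p of 0.0595 or 0.0714.

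By class, the mean Trac class share was lower in both treated groups, but no difference passed after adjustment. Trac class made up 8.33, 3.13, 7.04, 14.3 and 4.88% of annotated cells in the PBS mice, 4.55, 2.61, 2.86, 4.65 and 2.13% in the mono-IL10 mice and 0, 1.49, 0, 0 and 3.81% in the IL10/2-Trikine mice. The groups overlapped, since IL10/2-Trikine mouse 5 lay above PBS mouse 2. The means were 7.53% ± 4.27, 3.36% ± 1.16 and 1.06% ± 1.67 (SD, n = 5 each). Exact permutation p-values were 0.0159 for IL10/2-Trikine against PBS, 0.0476 for IL10/2-Trikine against mono-IL10 and 0.0317 for mono-IL10 against PBS, and all 3 were 0.0952 after adjustment over 6 tests. They passed the threshold in some fits with a mouse left out, at an adjusted p of 0.0238 for both comparisons with PBS without PBS mouse 2 and of 0.0476 for both comparisons of IL10/2-Trikine without IL10/2-Trikine mouse 5.

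The Trdc class share was 5, 0, 0, 0.893 and 2.44% under PBS, 2.27, 1.74, 5.71, 2.33 and 0% under mono-IL10 and 2.99, 1.49, 2.17, 0 and 0.952% under IL10/2-Trikine. All groups overlapped. The means were 1.67% ± 2.11, 2.41% ± 2.07 and 1.52% ± 1.14 (SD, n = 5 each), with exact permutation p = 0.944 for IL10/2-Trikine against PBS, 0.452 against mono-IL10 and 0.587 for mono-IL10 against PBS. Each share rests on 0 to 5 cells a mouse. Among cells with 1 of the constant genes, Trdc class made up 37.5, 0, 5.88 and 33.3% in 4 PBS mice, 33.3, 40, 66.7 and 33.3% in 4 mono-IL10 mice and 50 and 20% in 2 IL10/2-Trikine mice with at least 3 such cells. The exact permutation p was 0.171 for mono-IL10 against PBS, where the smallest possible is 0.0286, and 0.467 for IL10/2-Trikine against PBS, where it is 0.0667 and the threshold cannot be reached.

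**Figure D4:**
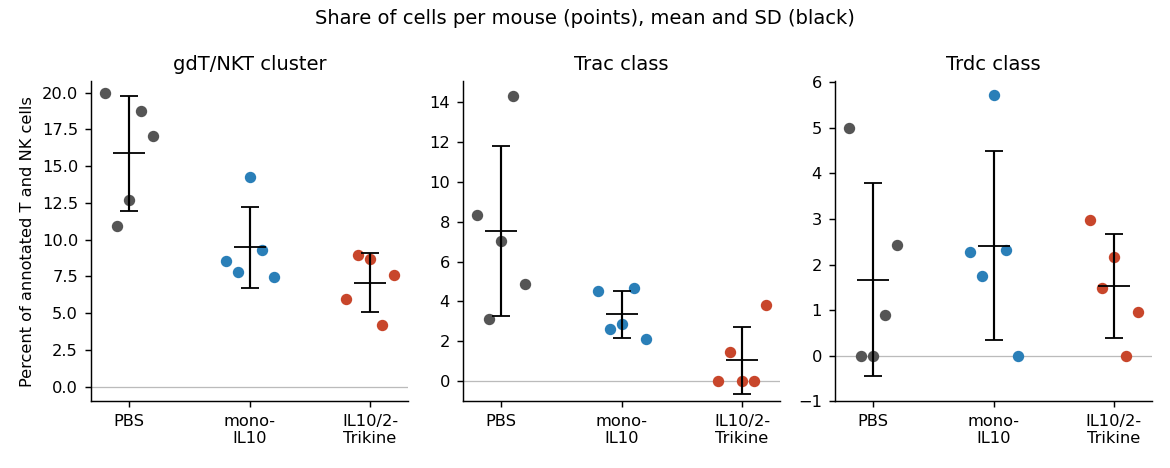
Percent of annotated T and NK cells per mouse (points) in the gdT/NKT cluster, its Trac class and its Trdc class, with the mean and SD of 5 mice a group in black. All 5 IL10/2-Trikine mice lie below all 5 PBS mice for the cluster (7.08% against 15.9%), while the Trdc class shares of the 3 groups overlap.

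The adaptor and CD3 transcripts were also followed by mouse, a choice made after seeing the data and a description with no test. At 1500 UMIs a cell, Tyrobp was seen in 53.8% ± 10.1 of gdT/NKT cells under PBS, 47.8% ± 15.3 under mono-IL10 and 82.7% ± 19.7 under IL10/2-Trikine (SD over 5 mice), and 4 of the 5 IL10/2-Trikine mice were above every mouse of the other groups. The IL10/2-Trikine mice 1 to 5 held 4, 12, 4, 2 and 8 gdT/NKT cells. The other adaptor, Fcer1g, was seen in 84.5% ± 9.24, 78.0% ± 9.74 and 83.5% ± 14.2, and the groups overlapped. A CD3 transcript was seen in 74.2%, 78.6% and 59.5% with wide overlap. In the IL10/2-Trikine library the 2 gdT/NKT cells of mouse 4 and 3 of the 4 of mouse 1 held no CD3 transcript. The treatment comparison of genes left out IL10/2-Trikine mouse 4, which had 2 cells, and kept 14 mice with 4 to 21 cells and 7990 to 71982 UMIs each.

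In the treatment comparison of genes, few transcripts passed. Of 3381 genes tested with edgeR on the sums per mouse, 6 were called for IL10/2-Trikine against PBS (0.177%), with Il31ra, Cdk8, Gzma and Gzmb higher and Fth1 and Rps12 lower. For IL10/2-Trikine against mono-IL10 12 were called (0.355%), and for mono-IL10 against PBS 5 (0.148%), all higher. DESeq2 called 35, 61 and 0. Most of its calls were lower under IL10/2-Trikine, with 2 higher and 33 lower against PBS and 3 higher and 58 lower against mono-IL10. The median log2 difference over all genes was -0.23 for IL10/2-Trikine against PBS, -0.21 against mono-IL10 and 0.00 for mono-IL10 against PBS, so values of the first 2 are to be read against that shift. The 7 NK markers, 6 or 7 of them with a UMI, summed to 2304 to 3554 CPM in the PBS mice, 2826 to 5083 in the mono-IL10 mice and 2685 to 6328 in the IL10/2-Trikine mice, and the groups overlapped. The 8 macrophage and monocyte markers summed to 172 to 571, 215 to 326 and 168 to 2044 CPM. Their part in the gene differences was not tested.

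Fth1, the ferritin heavy chain that stores iron, was lower under IL10/2-Trikine. Its CPM was 3378, 2949, 3198, 4792 and 2757 in the PBS mice, 3023, 3225, 1506, 3982 and 1873 in the mono-IL10 mice and 1143, 1080, 943 and 1157 in the IL10/2-Trikine mice. Every IL10/2-Trikine mouse was below every mouse of both other groups. The log2 difference was -1.66 ± 0.25 against PBS (edgeR adjusted p = 4.7e-07, DESeq2 4.6e-07) and -1.36 ± 0.25 against mono-IL10 (edgeR adjusted p = 0.0001, DESeq2 8.0e-05). Against PBS it was called in all 14 fits with a mouse left out and all 8 other settings. Against mono-IL10 it was called in all 14 and in 7 of 8, the exception being the thinning of all mice to the lowest total.

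Ribosomal protein genes were tested as a list with the metallothioneins. Of 84 ribosomal and metallothionein genes tested, 39 were lower and 0 higher in IL10/2-Trikine than in PBS at an unadjusted p under 0.05, where 6.42% of all genes tested were lower and 1.92% higher. The median log2 difference was -0.40 against -0.23 over all genes. Summed over the 99 listed genes without TMM scaling, CPM per mouse ran from 262808 to 308871 under PBS and 270018 to 313458 under mono-IL10. Under IL10/2-Trikine the sums ran from 237922 to 304712, so the groups overlapped. DESeq2 called 23 of the 84 lower than in PBS, where it called 0.976% of all genes lower and 0.0592% higher, and 39 lower than in mono-IL10, where it called 1.72% lower and 0.0887% higher. It called 0 of the 84 higher in either comparison. After edgeR adjustment Rps12 was called against PBS, and Rps4x and Rps24 among those called against mono-IL10. Rps4x held 2583, 2676, 2889, 2992 and 2145 CPM under PBS and 3707, 2610, 3235, 2862 and 3122 under mono-IL10. Under IL10/2-Trikine it held 1959, 1676, 1372 and 1157, with no overlap on this TMM scale. Without TMM scaling the IL10/2-Trikine mouse at 1959 lies above the PBS mouse at 2145, so the groups then overlap. Its log2 difference against mono-IL10 was -1.02 ± 0.23 (edgeR adjusted p = 0.010). The gdT/NKT cells of the IL10/2-Trikine library were also the shallowest, with 41.5% under 1100 genes against 20.5% in PBS and 6.67% in mono-IL10, and with all mice thinned to the lowest total the medians over all genes were -0.03 and 0.02 and the Rps12, Rps4x and Rps24 calls were lost.

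Gzma was called higher in both treated groups and Gzmb under IL10/2-Trikine, with overlap between mice. Gzma held 0, 218, 116, 176 and 38.3 CPM under PBS, 486, 1202, 223, 46.7 and 2353 under mono-IL10 and 245, 521, 171 and 1157 under IL10/2-Trikine. The highest PBS mouse lay above 1 mouse of each treated group. The log2 difference was 2.83 ± 0.45 for mono-IL10 against PBS (edgeR adjusted p = 4.1e-06, DESeq2 1.0) and 2.36 ± 0.52 for IL10/2-Trikine against PBS (edgeR adjusted p = 0.0099, no adjusted p from DESeq2). Without the cells holding Hspa1a or Hspa1b the mono-IL10 value dropped to 0.07 (edgeR adjusted p = 0.993), and the IL10/2-Trikine call was lost without PBS mouse 1 or 3 or IL10/2-Trikine mouse 2 or 5. Gzmb held 1363, 218, 38.5, 391 and 651 CPM under PBS, 972, 411, 669, 1509 and 480 under mono-IL10 and 1796, 1601, 429 and 1736 under IL10/2-Trikine, a log2 difference of 1.35 ± 0.34 against PBS (edgeR adjusted p = 0.048). Of 8 other settings 1 kept the Gzmb call, and 6 of 14 fits with a mouse left out did.

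The 10 STAT5 target genes that the study took from the literature include both granzymes. Of the 10, Gzma and Gzmb were called higher for IL10/2-Trikine against PBS (0.177% of all genes were called) and 9 had a positive log2 difference, as did 37.2% of all genes (median 0.41 against -0.23), and for mono-IL10 against PBS Gzma was called (0.148% of all genes) and 8 were positive, as were 50.6% of all genes (median 0.62 against 0.00). Prf1 had a log2 difference of 0.99 and Nkg7 of 0.38 for IL10/2-Trikine against PBS, and neither passed the test. Summed over the list without TMM scaling, CPM per mouse was 4073, 3158, 2439, 3550 and 3843 under PBS, 4586, 5225, 5092, 4584 and 7042 under mono-IL10 and 8178, 6150, 4756 and 6378 under IL10/2-Trikine. On this unscaled CPM all treated mice lay above all PBS mice, and the 2 treated groups overlapped. With the TMM factors of the gene fit, the IL10/2-Trikine mouse at 4756 CPM falls within the PBS range, so the separation depends on the scaling. Without Gzma and Gzmb the PBS sums were 2827, 2698, 2300, 3055 and 3130. The mono-IL10 sums were 3335, 3744, 4145, 3195 and 4290, and the IL10/2-Trikine sums 5744, 4135, 3880 and 3301. All treated mice were again above PBS on the unscaled CPM, and the mouse at 3880 again falls within the PBS range with the TMM factors. The 7 NK markers, which share Klrb1c with this list, summed to 2881, 3585 and 4754 CPM in the cluster of the PBS, mono-IL10 and IL10/2-Trikine libraries. The part of NK transcripts in the list sums was not tested.

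**Figure D5:**
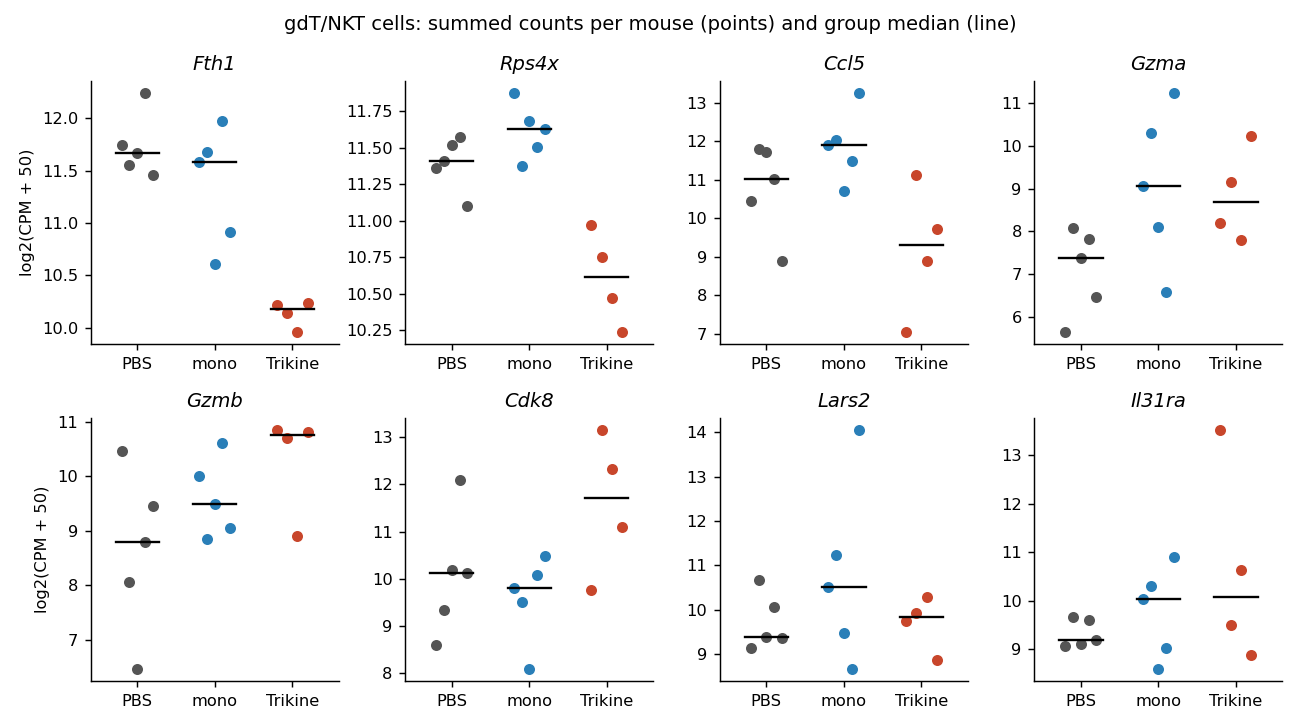
Log2(CPM + 50) of summed gdT/NKT counts per mouse (points) for 8 genes, with 5 PBS, 5 mono-IL10 and 4 IL10/2-Trikine mice and the group median as a line. On this TMM-scaled CPM Fth1 and Rps4x do not overlap between IL10/2-Trikine and the other groups. Without TMM scaling Rps4x overlaps between IL10/2-Trikine and PBS. Lars2 and Il31ra rest on 1 high mouse each.

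Ccl5 was lower under IL10/2-Trikine than under mono-IL10. It held 1334, 3496, 3313, 2034 and 421 CPM under PBS, 3779, 4134, 1618, 2816 and 9702 under mono-IL10 and 81.6, 2160, 429 and 789 under IL10/2-Trikine. IL10/2-Trikine mouse 2 lay above mono-IL10 mouse 3, and the other mice of the 2 groups did not overlap. The log2 difference between IL10/2-Trikine and mono-IL10 was -2.13 ± 0.30 (edgeR adjusted p = 3.9e-08, DESeq2 0.012), called in all 14 fits with a mouse left out. It was 1.07 ± 0.25 for mono-IL10 against PBS (edgeR adjusted p = 0.018, DESeq2 1.0), a call lost with any of 7 mice left out. Cdk8 was 2.37 ± 0.30 higher in IL10/2-Trikine than in mono-IL10 on the log2 scale (edgeR adjusted p = 4.9e-10, DESeq2 0.015), at 816, 9087, 5059 and 2157 CPM against 846, 674, 223, 1027 and 1393. IL10/2-Trikine mouse 1 lay within the mono-IL10 range, and PBS mouse 4 held 4342 CPM. In the highest IL10/2-Trikine mouse, 168 of the 244 Cdk8 UMIs came from its 2 Trdc class cells. Cdk8 also varied between mice of 1 treatment in NK cells, with 1352 UMIs in mono-IL10 mouse 2 against 34 to 366 in the other mono-IL10 mice. Malat1, a nuclear RNA, was lower in IL10/2-Trikine than in mono-IL10 without overlap, at 2939, 3054, 1115 and 1420 CPM against 4192, 4105, 3626, 3951 and 6340 (log2 difference -1.03 ± 0.22, edgeR adjusted p = 0.0033), a call lost with all mice thinned to the lowest total.

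Other calls rested on 1 mouse. Il31ra, a cytokine receptor chain, reached 11757 CPM in IL10/2-Trikine mouse 1 and 421 to 1543 CPM in the other 3, and without that mouse its call was lost against PBS (edgeR adjusted p = 0.886) and against mono-IL10 (0.891). Lars2, a mitochondrial transfer RNA synthetase, reached 16954 CPM in mono-IL10 mouse 5, from 353 UMIs against 8 to 80 in the other 13 mice. Ccl4, a chemokine, reached 3026 CPM in the same mouse, from 63 UMIs against 0 to 27. The calls of both genes, for mono-IL10 against PBS and for IL10/2-Trikine against mono-IL10, were lost without it. Spp1, osteopontin, reached 1551 CPM in IL10/2-Trikine mouse 1. Cmss1 was called for mono-IL10 against PBS (log2 difference 1.5 ± 0.31, edgeR adjusted p = 0.0019) at 397, 109, 347, 1193 and 613 CPM under PBS and 900, 3372, 558, 436 and 3218 under mono-IL10, with overlap and with the call lost without PBS mouse 2 or 3 or mono-IL10 mouse 2 or 5.

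The lists of cytokine receptors and of STAT and SOCS genes, which do not include Il31ra, had no called member. Of 8 cytokine receptor genes and 8 STAT and SOCS genes tested, edgeR and DESeq2 called 0 in each of the 3 comparisons, though DESeq2 gave an adjusted p to 2 of the 16 in the comparisons of IL10/2-Trikine. At an unadjusted p under 0.05 in edgeR, 1, 1 and 0 cytokine receptor genes and 1, 0 and 1 STAT and SOCS genes were lower, and 0 were higher, in the order IL10/2-Trikine against PBS, IL10/2-Trikine against mono-IL10, mono-IL10 against PBS. Of all genes tested 6.42%, 7.1% and 1.86% were lower and 1.92%, 1.3% and 2.48% higher at that threshold. The cytokine receptor gene that was lower against PBS was Il18r1 (log2 difference -3.07, not called), which was seen in 22, 21 and 2 cells of the PBS, mono-IL10 and IL10/2-Trikine libraries. Il2rb had a log2 difference of -0.39 for IL10/2-Trikine against PBS. Of 6 naive T cell genes edgeR called 0, with 3 lower at an unadjusted p under 0.05 for IL10/2-Trikine against PBS. DESeq2 gave none of them an adjusted p there. All 6 had a negative log2 difference in that comparison (median -1.39 against -0.23 over all genes), among them the homing genes Klf2 (-3.05) and S1pr1 (-4.65). Klf2 held 0, 1, 0 and 0 UMIs in the IL10/2-Trikine mice, and S1pr1 was seen in 13, 14 and 0 cells of the 3 libraries. Both values depend on the prior count, so no size is read from them. The receptor genes themselves were not called between treatments, with Trdc at 1.70 and Trac at -1.23 for IL10/2-Trikine against PBS.

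Whether the cluster responded differently from NK cells was tested as an interaction, the change in gdT/NKT minus the change in NK cells of the same 14 mice. Of 7865 genes 5 were called for IL10/2-Trikine against PBS (0.0636%), 4 for IL10/2-Trikine against mono-IL10 (0.0509%) and 1 for mono-IL10 against PBS (0.0127%), and DESeq2 called 0 in each. CPM in this comparison were scaled by TMM over the gdT/NKT and NK sums together, so gdT/NKT levels differ from the CPM given above, which were scaled over gdT/NKT sums alone. On this joint scale Ccl5 averaged 1864, 3960 and 720 CPM in gdT/NKT cells and 747, 1139 and 1209 CPM in NK cells under PBS, mono-IL10 and IL10/2-Trikine. The difference of log2 differences was -2.34 ± 0.33 for IL10/2-Trikine against mono-IL10 (edgeR adjusted p = 6.7e-09), called in all 14 fits with a mouse left out, and -1.81 ± 0.34 against PBS (edgeR adjusted p = 0.0010), lost without PBS mouse 3 or IL10/2-Trikine mouse 1 or 3. With the other T cells in place of NK cells the 2 values turned to 2.20 and 1.26, so the direction for Ccl5 holds relative to NK cells only.

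On the same joint scale Fth1 averaged 3073, 2543 and 887 CPM in gdT/NKT cells and 2496, 2723 and 1803 CPM in NK cells. Its difference of log2 differences for IL10/2-Trikine against PBS was -1.31 ± 0.30 (edgeR adjusted p = 0.020), and it was called in 8 of 14 fits with a mouse left out. Xcl1 averaged 2197, 1809 and 1613 CPM in gdT/NKT cells and 3157, 2692 and 989 CPM in NK cells, so its positive differences of 1.34 ± 0.30 against PBS and 1.32 ± 0.30 against mono-IL10 (edgeR adjusted p = 0.020 and 0.021) came with a lower level in NK cells of the IL10/2-Trikine mice. They were called in 7 and 4 of 14 fits with a mouse left out. Cd3d was called too (edgeR adjusted p = 0.031 against PBS, in 7 of 14 fits with a mouse left out), but its NK side rests on almost no counts. NK cells of the 5 PBS mice held 0, 0, 0, 0 and 1 UMIs of Cd3d, so the fitted difference depends on the prior count and no size is read from it.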

How the data were processed

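Single-cell RNA sequencing counts of tumor CD45+ cells were used as deposited. The authors made the UMI count matrices with Cell Ranger on GRCm39, 1 library per treatment. In the cell table the authors kept cells with at least 1000 genes and at most 10% mitochondrial UMIs (a percent given per cell), integrated them with Harmony in Seurat 5.1.0, assigned hashtags and named the clusters by hand. The 7858 cells of a further group in that table have no sample here and were not used.

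The mouse (hashtag) was the replicate. Shares were compared with exact two-sided permutation tests, adjusted by Benjamini-Hochberg within each family. Counts were summed per mouse and tested with edgeR 4.0.16 quasi-likelihood (TMM, genes with at least 20 UMIs and a UMI in at least 5 sums, at least 3 cells a mouse or 2 a mouse and class, adjusted p of 0.05), with DESeq2 1.42.0 as an alternative. The SE beside an edgeR log2 difference was back-calculated, as the size of that difference over the square root of the quasi-likelihood F statistic. TMM factors were estimated within each fit, so CPM of different fits are on different scales. Class and NK comparisons had the mouse as a block. Fits were also run on simulated counts drawn with the same dispersion for every gene. That setting holds no mouse with outlying counts, so it does not bear on calls that rest on such a mouse. Named genes were all called genes, list members with most UMIs and the label's markers. Members and lists were chosen with earlier results of these data known. Some genes are not reported here, though counts of called genes include them.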

Additional observations from a re-analysis of the deposited data

Results flagged for a closer look

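Of 79 groups of 4 or 5 mice examined, 13 held a mouse far from the others of its group. The rule flags about 1 in 20 groups by chance when values are normally distributed. Some groups here held only 1 value above 0, which the rule always flags, so the 13 are not read as an excess over chance. For shares these were mono-IL10 mouse 3 for the cluster (14.3% of annotated cells), IL10/2-Trikine mouse 2 for cells with a Trgv6 or Trdv4 UMI (8.33%, from 1 cell) and IL10/2-Trikine mouse 5 for cells with Trac at 1500 UMIs (44.9%). For transcripts, Ccl4 stood high in PBS mouse 3 (231 CPM), mono-IL10 mouse 5 (3026 CPM) and IL10/2-Trikine mouse 2 (223 CPM). Mono-IL10 mouse 5 was also high for Lars2 (16954 CPM) and Malat1 (6340 CPM), and PBS mouse 4 for Cdk8 (4342 CPM). IL10/2-Trikine mouse 1, with 4 cells, was high for Il31ra (11757 CPM) and Spp1 (1551 CPM), and IL10/2-Trikine mouse 3, also with 4 cells, was low for Gzmb (429 CPM) and Rps12 (3687 CPM).

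In 10 tests the treatment difference in gdT/NKT cells departed from that in NK cells of the same mice. For IL10/2-Trikine against PBS the differences of log2 differences were -1.81 for Ccl5, 3.21 for Spp1, -1.31 for Fth1, 1.34 for Xcl1 and -4.23 for Cd3d. For IL10/2-Trikine against mono-IL10 they were -2.34 for Ccl5, 1.53 for Cdk8, -1.60 for Lars2 and 1.32 for Xcl1, and for mono-IL10 against PBS 1.47 for Cmss1. DESeq2 called none of the 10. The Cd3d value depends on the prior count, since NK cells of the 5 PBS mice held 1 UMI in all. With CPM scaled over gdT/NKT and NK sums together, Spp1 averaged 75.5, 52.7 and 373 CPM in gdT/NKT cells and 1353, 1080 and 481 CPM in NK cells, and its call was lost without IL10/2-Trikine mouse 1 or PBS mouse 4.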

How the results depend on the processing

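The cluster share for IL10/2-Trikine against PBS kept its direction but not its call with T cell clusters alone as denominator (-5.94 percentage points), with cells of at least 1500 genes (-10.4) and with cells holding a CD3, Trac or Trdc UMI (-7.86). For mono-IL10 against PBS these values were -8.72, -5.80 and -4.81, also not called. For IL10/2-Trikine against mono-IL10 the first turned to 2.78 and the second passed the threshold at -4.61. The Trdc class difference from PBS turned to 0.42 with all receptor genes and 0.26 after thinning, and the Trgv6 or Trdv4 share between the treatments to 0.60 after thinning. Without each mouse in turn, the cluster share differences ran from -10.0 to -7.78, -2.90 to -1.19 and -7.65 to -5.38 (IL10/2-Trikine against PBS, IL10/2-Trikine against mono-IL10, mono-IL10 against PBS, an order kept below), Trac class from -7.57 to -4.78, -2.98 to -1.97 and -5.28 to -2.49, and Trdc class from -0.56 to 0.69, -1.49 to -0.064 and -0.082 to 1.58. Trdc class among typed cells ran from 0.82 to 30.8, -23.3 to 6.67 and 16.4 to 30.3, and the Trgv6 or Trdv4 share from 0 to 2.08, -2.33 to 0.42 and 1.25 to 2.92. Trdc class reversed without PBS mouse 1 (0.69), PBS mouse 5 (0.048) or IL10/2-Trikine mouse 4 (0.23).

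Called treatment genes numbered 35, 61 and 0 with DESeq2, 3, 4 and 2 with at least 5 cells a mouse, and 3, 6 and 2 with cells holding a CD3, Trac or Trdc UMI, a choice made after seeing the data. DESeq2 size factors gave 26 for the second comparison, and thinning gave 4 for the second and 1 for the third. For the third, no filter gave 8, the Trdc class share as a covariate 8, and leaving out heat shock positive cells, also chosen after seeing the data, 2. The difference from NK cells gave 0, 0 and 0 with DESeq2, 3, 2 and 0 with no filter and 2 for the first with other T cells. Without each mouse the counts ran from 2 to 14, 7 to 27 and 2 to 7 by treatment, and from 1 to 6, 1 to 5 and 0 to 2 against NK cells. Il31ra turned to -0.15 and -0.83 in the first 2 comparisons with at least 5 cells and to -0.30 in the second without IL10/2-Trikine mouse 1 (range without each mouse -0.30 to 2.24), Spp1 to -0.16 with at least 5 cells, and Ccl5 against other T cells to 1.26 and 2.20. The cause of these changes was not tested.

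For the classes, the fit without the replicate block called 7 genes against 6 with it, DESeq2 called 2, and leaving out a mouse gave 1 to 6. Treatment comparisons were not blocked: hashtag numbers recur in each group, but no source ties mice of different treatments that carry the same number, and a block on that number was not run. Precision was limited by 2 to 21 cells a mouse.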
